A study of Mus musculus with 6 samples.

Results

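The genes described here encode the single-isoform parts of respiratory complexes II to V: succinate dehydrogenase, the cytochrome bc1 complex, cytochrome c, cytochrome oxidase and ATP synthase. They were listed by name, 37 in all, and matched by current or older symbols to the genes of the array. Of the 37, 36 were measured by at least 1 probe set that names a single gene, among 18193 genes measured that way, and Cox7b was the exception and is not analysed here. The label "single-isoform" holds only in part. Atp5g1, Atp5g2 and Atp5g3 are separate genes for the same mature c subunit of ATP synthase, Cox7a2l encodes a factor that joins complexes III and IV rather than an oxidase subunit, and Atpif1 encodes an inhibitor of ATP synthase. Tissue-specific oxidase isoforms were left out of the list, which was drawn up with earlier results of these data known.

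RNA from whole kidneys of ERRa KO mice, which lack the nuclear receptor ERRα, was compared with RNA from WT mice on Affymetrix expression arrays. The mice were males of 2 to 3 months on a standard diet under a 12 h light-dark cycle, with 3 biological replicates per genotype and 1 array each. The labels name neither the strain, nor the deleted part of Esrra, nor whether WT mice were littermates, and they do not say in words that each replicate is another mouse, so p-values measure the spread between these 6 samples. Each value is a log2 RMA level, in which a step of 1 is a doubling of signal, and every change is the ERRa KO mean minus the WT mean on that scale.

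Electrons from succinate enter the chain at complex II and are passed through ubiquinone to complex III, then by cytochrome c to complex IV, which reduces oxygen. Complexes III and IV pump protons across the inner mitochondrial membrane, and complex V lets them back through its membrane part, Fo, to drive ATP synthesis in its catalytic part, F1. All genes listed here are nuclear. ERRα works with coactivators of the PGC-1 family and is known to bind and activate many genes of this machinery in heart, muscle and other tissues, and the kidney tubule, which moves salt and solutes by active transport, is rich in mitochondria.

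Before the results, 4 facts on the arrays matter. The authors' deposited table heads its columns with the genotypes exchanged: for 45101 of 45101 probe sets its WT columns hold the values that the series table assigns to the ERRa KO samples. The sample labels of the series table were used. With those labels Esrra, the targeted gene, read 9.43, 9.43 and 9.52 in the WT arrays and 6.66, 6.51 and 6.41 in the ERRa KO arrays (change -2.93, SE 0.08, limma adjusted p = 9.85e-06). Hepatocyte markers read high in ERRa KO replicate 3, where Alb was 12.07 against 6.48 to 6.80 elsewhere, so values without that array are given below. The difference between the 3′ and 5′ control probe sets of Actb, a sign of RNA integrity, was 0.80, 0.89 and 0.94 in the WT arrays and 0.77, 0.79 and 0.77 in the ERRa KO arrays, which do not overlap, while that of Gapdh overlapped between genotypes (0.00 to 0.06). The part of RNA integrity in the changes below was not tested. Defining kidney genes were bright in the WT arrays, with means of 13.52 for Umod of the thick ascending limb, 12.77 for Lrp2 of the proximal tubule and 10.45 for Aqp2 of the collecting duct.

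The genes of complexes II to V differed little between genotypes, and most read slightly lower without ERRα. In ERRa KO kidneys 29 of the 36 measured genes had a negative change and 7 a positive one, and the median was -0.06, or -4.34%; over all 18193 genes 47.4% read lower and the median was 0.01. None of the 36 passed limma's threshold of an adjusted p under 0.05, which 0.495% of all genes passed, and the smallest adjusted p was 0.214, for Atp5k. In simulated data the threshold passed 4% of genes given a change of 0.25, and all 36 changes were smaller than that. Those genes were drawn from all 18193, whose median SD within a genotype was 0.09, against 0.03 in the 36 genes. The share that the threshold passes among genes with so small a spread was not tested. At an unadjusted p under 0.05 limma counted 5 of the 36 lower and 0 higher, against 6.2% of all genes lower and 6.22% higher. The 5 became 1 without WT replicate 1, 2 without WT replicate 3 or ERRa KO replicate 1, and 3 without WT replicate 2 or ERRa KO replicate 2. In a whole organ, fewer mitochondria-rich cells and less of a transcript in each cell cannot be told apart.

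The direction was the same in every complex except complex II. Lower readings came from 2 of 4 genes of complex II (median -0.01) and 7 of 9 of complex III (median -0.05). They also came from 6 of 6 of complex IV with Cox7a2l (median -0.06), 13 of 16 of complex V with its inhibitor (median -0.06), and Cycs. All 3 ERRa KO values lay below all 3 WT values in 18 of the 36 genes, a pattern met by 9.56% of all genes, and all lay above in 1, Atp5a1, against 9.11%. Genes as bright as these are a nearer background: of 789 genes with a mean level of at least 11, 55.3% read lower, and the median change was -0.01. Of these 789, 166 had all ERRa KO values below the WT values and 114 had all above. In the main fit limma put 64 of them lower and 54 higher at an unadjusted p under 0.05. No test was made over the list.

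**Figure D1:**
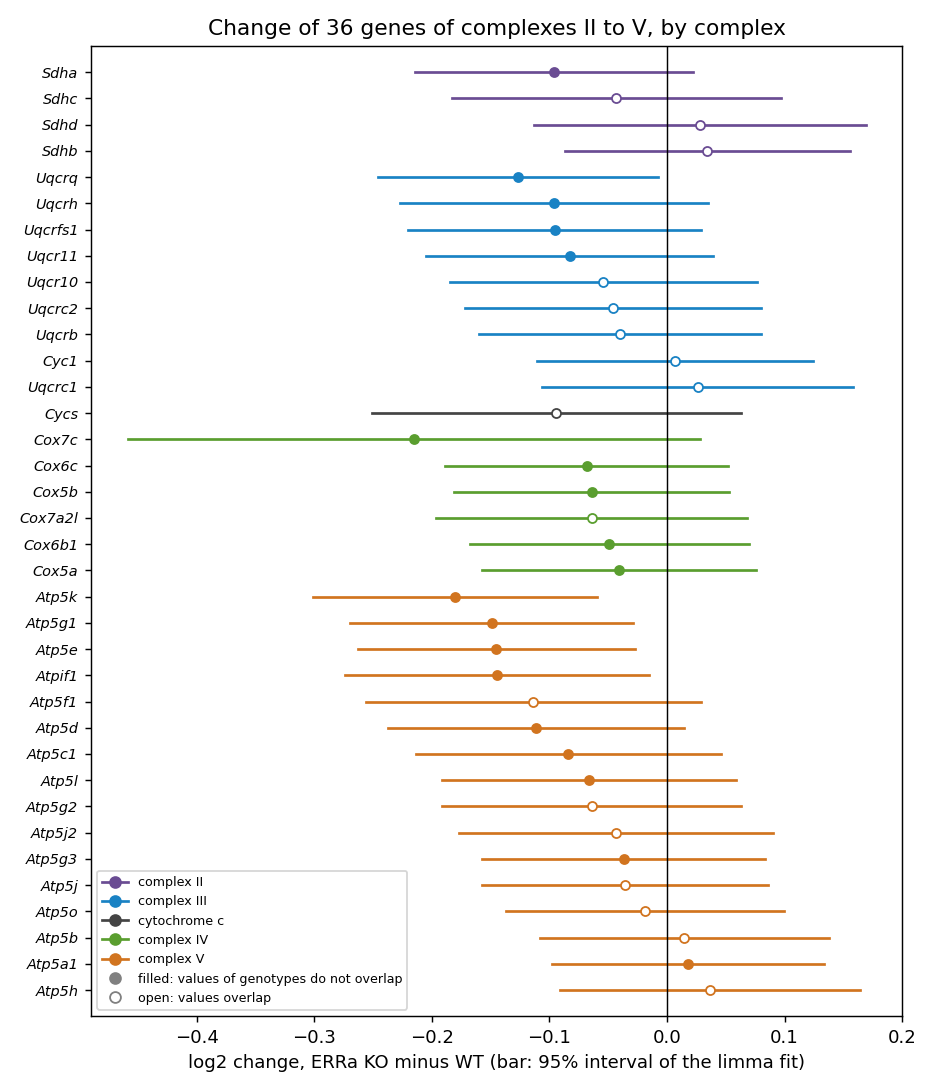
Log2 change (ERRa KO minus WT) of each of the 36 genes with the 95% interval of the limma fit, grouped by complex; filled points mark genes whose 3 ERRa KO values do not overlap the 3 WT values. Points lie left of 0 in 29 genes, and in 5 of them the whole interval does, namely Uqcrq, Atp5k, Atp5g1, Atp5e and Atpif1.

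Complex II, succinate dehydrogenase, is also an enzyme of the citrate cycle. Its flavoprotein gene Sdha, whose product oxidises succinate, read 12.42, 12.38 and 12.42 in WT and 12.31, 12.32 and 12.30 in ERRa KO kidneys (change -0.10, SE 0.05, limma adjusted p = 0.505). All ERRa KO arrays lay below all WT arrays. The iron-sulphur subunit gene Sdhb had the highest change of the complex, with 12.95, 12.94 and 12.96 in WT and 13.01, 13.00 and 12.94 in ERRa KO kidneys (change 0.03, 95% interval -0.09 to 0.16, adjusted p = 0.833). Its genotypes overlapped through ERRa KO replicate 3. The membrane anchor genes Sdhc and Sdhd read -0.04 and 0.03, also with overlapping values.

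Within complex III the small accessory subunits read lower together. All 5 accessory genes, Uqcrq, Uqcrh, Uqcr11, Uqcr10 and Uqcrb, had negative changes, from -0.13 to -0.04, with a median of -0.08. Uqcrq, which encodes the subunit next to cytochrome b, read 12.16, 12.17 and 12.13 in WT and 12.04, 12.04 and 12.00 in ERRa KO kidneys (change -0.13, 95% interval -0.25 to -0.01, limma adjusted p = 0.369). The genotypes did not overlap. That change rests on the 1 bright probe set of the gene, since its other 3 lie at levels of 3.96 to 4.68, near or under the array median, and 2 of these read higher.

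The redox and core subunits of complex III were mixed. Uqcrfs1, the Rieske iron-sulphur protein that takes electrons from ubiquinol, had a change of -0.10 (adjusted p = 0.530) with no overlap between genotypes. Cyc1, the cytochrome c1 that hands electrons to cytochrome c, had a change of 0.01 (95% interval -0.11 to 0.12). The core protein gene Uqcrc1 was the highest of the complex, with 12.11, 12.13 and 12.07 in WT and 12.19, 12.13 and 12.07 in ERRa KO kidneys (change 0.03, adjusted p = 0.883), and its partner Uqcrc2 read -0.05. In Uqcrc1 the values coincided in all but ERRa KO replicate 1, which was higher. Cytochrome c itself, Cycs, had a change of -0.09 (95% interval -0.25 to 0.06), and its 3 bright probe sets gave -0.09, -0.09 and -0.16. The change was -0.05 without WT replicate 1 or without ERRa KO replicate 1, and -0.04 after quantile normalizing again.

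All 6 measured genes listed under complex IV, the joining factor Cox7a2l among them, read slightly lower. Cox5a, Cox6b1, Cox7a2l, Cox5b and Cox6c, in order from the smallest to the largest, had changes between -0.04 and -0.07. Cox5a, a subunit on the matrix side of the oxidase, read 12.94, 12.94 and 12.92 in WT and 12.90, 12.89 and 12.89 in ERRa KO kidneys (change -0.04, 95% interval -0.16 to 0.08, limma adjusted p = 0.787). Its values did not overlap because the arrays of a genotype agreed within 0.01 (SD). By the probe sets used here Cox5b, Cox6b1 and Cox6c did not overlap either, and Cox7a2l did. The other bright probe sets of Cox5a, Cox5b, Cox6b1 and Cox6c read lower too. In those of Cox5a, Cox6b1 and Cox6c the genotypes overlapped, and in those of Cox5b some did and some did not. Under some settings the main changes were smaller, at -0.01 for Cox5a and -0.03 for Cox6c after quantile normalizing again. They were -0.01 for Cox5b with averaged probe sets and -0.04 for Cox7a2l without ERRa KO replicate 3. Cox7c had the lowest change of all 36 genes, at -0.22, but only dim probe sets name it. The dimmer probe set read higher, at 0.08, and with averaged probe sets the change was -0.07. In the probe set used here Cox7c read 5.39, 5.54 and 5.40 in WT and 5.33, 5.36 and 4.99 in ERRa KO kidneys (SE 0.10, adjusted p = 0.466). Without ERRa KO replicate 3, its lowest array, the change was -0.10. Its genotypes did not overlap, though WT and ERRa KO arrays other than that one lay close together. Leaving Cox7c out, 28 of 35 genes read lower and the median stayed at -0.06.

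Complex V held 4 of the 5 genes with an unadjusted p under 0.05. Atp5k encodes subunit e, a small membrane subunit at the interface where ATP synthases dimerise. It read 12.21, 12.16 and 12.22 in WT and 12.02, 12.00 and 12.03 in ERRa KO kidneys, a change of -0.18 or -11.8% (SE 0.05, 95% interval -0.30 to -0.06, limma adjusted p = 0.214). The gap between the genotypes was wider than the spread within either. All 3 probe sets of Atp5k are bright and gave changes of -0.18, -0.15 and -0.14. The other small membrane subunit genes, Atp5l and Atp5j2, read -0.07 and -0.04.

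The 3 c-subunit genes showed unequal changes, although their products are the same after the presequence is removed. Atp5g1 read 12.32, 12.28 and 12.35 in WT and 12.18, 12.17 and 12.15 in ERRa KO kidneys (change -0.15, 95% interval -0.27 to -0.03, limma adjusted p = 0.302). Atp5g2 read 11.52, 11.54 and 11.58 in WT and 11.52, 11.50 and 11.43 in ERRa KO kidneys (change -0.06, 95% interval -0.19 to 0.06, adjusted p = 0.682). Atp5g3 read 13.46, 13.47 and 13.48 in WT and 13.40, 13.45 and 13.46 in ERRa KO kidneys (change -0.04, 95% interval -0.16 to 0.08, adjusted p = 0.821). Values of Atp5g1 were clearly apart between genotypes, those of Atp5g3 only just and by less than the rounding shown, and those of Atp5g2 overlapped. The intervals of the 3 genes overlap one another, and the difference between the genes was not tested.

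In F1 the alpha and beta subunits read near WT and the small central-stalk subunits lower, though not in every bright probe set. Atp5b, the catalytic beta subunit, had a change of 0.01 (95% interval -0.11 to 0.14), and Atp5a1, the alpha subunit, one of 0.02, with values of 13.26, 13.27 and 13.27 in WT and 13.29, 13.29 and 13.29 in ERRa KO kidneys (adjusted p = 0.911). Another bright probe set of Atp5a1 read -0.03. Atp5e, the epsilon subunit, read 11.70, 11.70 and 11.68 in WT and 11.53, 11.57 and 11.54 in ERRa KO kidneys (change -0.15, 95% interval -0.26 to -0.03, adjusted p = 0.304). Atp5d, the delta subunit, read 12.98, 13.01 and 13.06 in WT and 12.91, 12.94 and 12.87 in ERRa KO kidneys (change -0.11, adjusted p = 0.466), while its other bright probe set gave -0.00. By the probe sets used here both small subunits were lower in every ERRa KO array. In the other bright probe set of Atp5d the genotypes overlapped. Atp5c1, the gamma subunit that turns inside F1, had a change of -0.08. Whether the small subunits differ from alpha and beta was not tested.

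The peripheral stalk, which holds F1 still against the turning ring, had changes of -0.11 for Atp5f1, -0.04 for Atp5j, -0.02 for Atp5o and 0.04 for Atp5h. Atp5h, the highest of complex V, read 12.74, 12.70 and 12.76 in WT and 12.74, 12.75 and 12.82 in ERRa KO kidneys (limma adjusted p = 0.830). In the probe sets used here all 4 stalk genes had overlapping values. The other bright probe set of Atp5h gave 0.11 and that of Atp5f1 -0.12, and in both the genotypes did not overlap. That of Atp5o gave -0.12 with overlapping values. Atpif1, whose product blocks ATP synthase from running backwards, read 11.83, 11.75 and 11.83 in WT and 11.62, 11.68 and 11.69 in ERRa KO kidneys (change -0.14, 95% interval -0.27 to -0.02, adjusted p = 0.345). Every ERRa KO value of Atpif1 lay below every WT value.

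**Figure D2:**
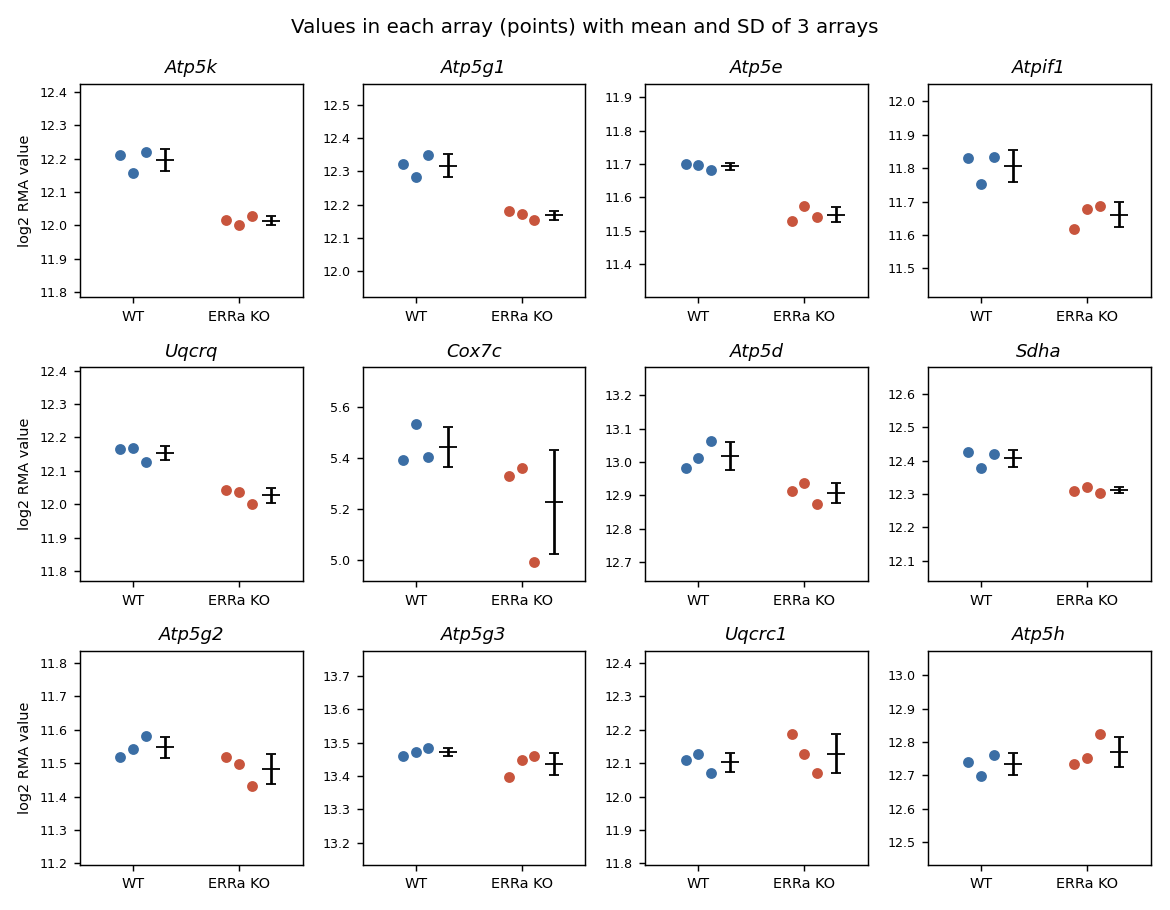
Log2 RMA values in each array for the 8 genes with the smallest p and for Atp5g2, Atp5g3, Uqcrc1 and Atp5h, with the mean and SD of 3 arrays per genotype beside the points; axes are zoomed and do not start at 0. In the top row the genotypes are apart in all 4 genes, Atp5k, Atp5g1, Atp5e and Atpif1, and in the bottom row they lie close together or overlap.

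The intervals bound how large a change the arrays leave room for. In the 35 genes with a mean level of at least 10, by the probe set used for each, estimates ran from -11.8% to 2.58%. The lowest bound of any 95% interval was -18.8% and the highest 12.4% (log2 -0.30 and 0.17). These are intervals for single genes, not joint ones, and bright RMA values can be compressed. Other bright probe sets of these genes reached past both bounds. Fitted over all probe sets, the interval was -0.33 to 0.02 in such a probe set of Cycs and -0.02 to 0.24 in that of Atp5h. Spread within a genotype was small: the SD had a median of 0.03 over the 36 genes and 0.09 over all genes, while limma drew each estimate toward a common SD of 0.09. With a prior that follows the expression level, which put the median prior SD of these genes at 0.05, limma called Atp5k (adjusted p = 0.0225) and Atp5g1 (adjusted p = 0.0487) lower, as it did 1.03% of all genes. Fitted on the 789 bright genes alone, an alternative chosen after the data were seen, limma called 5 of the 34 that are bright enough lower, Atp5k, Atp5g1, Atp5e, Uqcrq and Atpif1, against 5.7% of the genes in that fit called lower. An equal-variance test put 14 of the 36 at an unadjusted p under 0.05, 13 lower and Atp5a1 higher. The same test put 11.2% of all genes there, and 201 of the 789 bright genes, the nearer background. After adjustment it called 0 of the 36 and 0 of all genes.

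The 36 genes have 80 probe sets, and of the 61 at a mean level of at least 10, 53 read lower and 8 higher. Besides the probe sets that stand for the genes above, 19 genes have 26 more at that level, measured on the same RNA, of which 25 read lower and 1 higher with a median of -0.08. Of 19 genes with 2 or more bright probe sets, all were lower in 17, all higher in 1, Atp5h, and mixed in 1, Atp5a1. Among the 19 dimmer probe sets 12 read lower and 7 higher. In the fit over 45037 probe sets 0 of the 80 passed limma's threshold, which 0.111% of all probe sets passed, while at an unadjusted p under 0.05 there were 6 lower and 2 higher, against 5.77% of all probe sets lower and 5.1% higher. Both higher ones are dim probe sets of Uqcrq.

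The lower readings were present in each ERRa KO array. Measured from each gene's WT mean, the median over the 36 genes was -0.05, -0.06 and -0.07 in ERRa KO replicates 1, 2 and 3, and 0.00, -0.01 and 0.02 in the WT arrays. In ERRa KO arrays 28, 29 and 32 of the 36 genes lay below their WT mean, and in WT arrays 18, 25 and 10. Over all 18193 genes the counts were 8799, 8354 and 9594 in ERRa KO arrays and 9077, 8583 and 9434 in WT arrays. ERRa KO replicate 3 was the lowest of the 6 arrays in 20 genes and WT replicate 3 the highest in 19. Without ERRa KO replicate 3, the array with hepatocyte transcripts, 30 genes read lower with a median of -0.06, and 5 had an unadjusted p under 0.05 in that direction, the one omission that left this count as it was. When any single array was left out, 29 or 30 genes read lower and 0 passed the threshold. Quantile normalizing the deposited values again narrowed the median to -0.04, with 28 lower and 8 higher, Atp5o being the gene that turned.

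**Figure D3:**
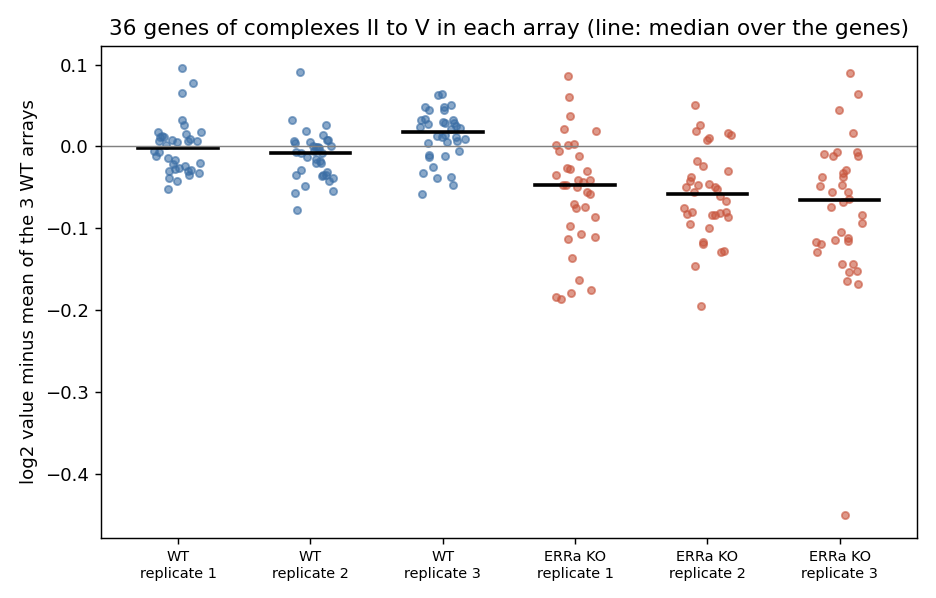
Each point is 1 of the 36 genes, plotted by array as its log2 value minus the mean of the 3 WT arrays; the line is the median over genes. Medians lie between -0.01 and 0.02 in the WT arrays and between -0.07 and -0.05 in the ERRa KO arrays, and the single low point of ERRa KO replicate 3 is Cox7c.

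Other genes of the pathway are given beside these from lists that were likewise written with earlier results known. Complex I, which takes electrons from NADH, had 28 of 33 measured subunit genes below WT and a median of -0.06; 0 passed limma's threshold, and Ndufb10 (-0.24, adjusted p = 0.129) and Ndufb7 (-0.20, adjusted p = 0.183) had the smallest p. Among 34 measured assembly factors of complexes II to V, a list that also holds the complex I factor Foxred1, 22 read lower with a median of -0.03 and 0 passed; the copper chaperone gene Sco2 read -0.19 (adjusted p = 0.364) and the haem lyase gene Hccs -0.13 (adjusted p = 0.378). A list of carriers and porins that move ATP, phosphate and other solutes across the mitochondrial membranes also holds the creatine kinase genes Ckmt1 and Ckmt2. Of its 11 genes 6 read lower and 5 higher and 0 passed limma's threshold. The oxoglutarate carrier gene Slc25a11 read 0.20 (adjusted p = 0.168) and the ATP/ADP carrier gene Slc25a4 -0.13 (adjusted p = 0.502). Of 11 further subunits, paralogs and associated factors 5 read lower and 6 higher and 0 passed, with Higd1a at 0.11 (adjusted p = 0.487) and Higd2a at -0.10 (adjusted p = 0.513). Among the 8 paired oxidase isoforms 4 read lower and 4 higher, and the muscle-type Cox8b alone passed, at 1.06 (adjusted p = 0.0328), with Cox7a1 at 0.40 (adjusted p = 0.112). The 4 lower were the bright Cox4i1 (-0.08), Cox6a1 (-0.01), Cox7a2 (-0.16) and Cox8a (-0.04), with WT means of 12.18 to 13.93. The other 2 higher were Cox6a2 (0.48) and Cox4i2 (0.03), and WT means of the 4 higher were 4.76 to 8.18. Of genes known from brown fat, Ucp1 read 1.18 (adjusted p = 0.320) and Cidea 0.99 (adjusted p = 0.199), both named after their values were seen, and their part in the Cox8b change was not tested. Of 10 genes for ERR receptors, coactivators, nuclear respiratory factors and Tfam only Esrra passed, and Ppargc1a, which encodes PGC-1α, read -0.14 (adjusted p = 0.347). Mitochondrially encoded subunits were not analysed here.

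Markers of some mitochondria-rich tubule segments also read lower. Thick ascending limb markers read lower in 7 of 8 genes with a median of -0.31, and their summed level was 14.75 to 14.86 in WT and 14.54 to 14.75 in ERRa KO kidneys (log2). Intercalated cell markers read lower in 10 of 11 genes with a median of -0.24 (summed 12.01 to 12.21 in WT, 11.84 to 11.98 in ERRa KO). Distal tubule markers read lower in 6 of 6 with a median of -0.09 (summed 13.46 to 13.68 in WT, 13.23 to 13.49 in ERRa KO, which overlap). Proximal tubule markers read lower in 4 of 13 with a median of 0.02, and their summed ranges overlapped as well (16.70 to 16.74 in WT, 16.69 to 16.74 in ERRa KO). In these 4 segments 0 markers passed the adjusted threshold of limma, while at an unadjusted p under 0.05 there were 14 lower and, in the proximal tubule, 2 higher among 38 markers, beside the 6.2% and 6.22% of all genes. For hepatocyte markers 9 of 11 changes were positive, the median was 0.80, and their summed level spanned 12.88 to 13.95 in ERRa KO kidneys against 13.22 to 13.39 in WT. Lower readings were not limited to tubule segments. Fibroblast markers read lower in 6 of 6 genes with a median of -0.41 (summed 10.98 to 11.26 in WT, 10.28 to 10.47 in ERRa KO), and 2 collagen genes passed limma's threshold, Col3a1 at -1.19 (adjusted p = 0.0156) and Col1a2 at -0.62 (adjusted p = 0.0213). Negative changes were also found in 6 of 8 smooth muscle and pericyte markers (median -0.19), 5 of 7 macrophage markers (median -0.22), 6 of 9 endothelial markers (median -0.07) and 4 of 8 principal cell markers (median -0.03). Positive changes were found in 6 of 7 podocyte markers (median 0.17), 6 of 6 adipocyte markers (median 0.17) and 5 of 7 skeletal muscle markers (median 0.07). Outside the fibroblast list 0 cell type markers passed. The part of any of these cell types in the changes of complexes II to V was not tested.

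**Figure D4:**
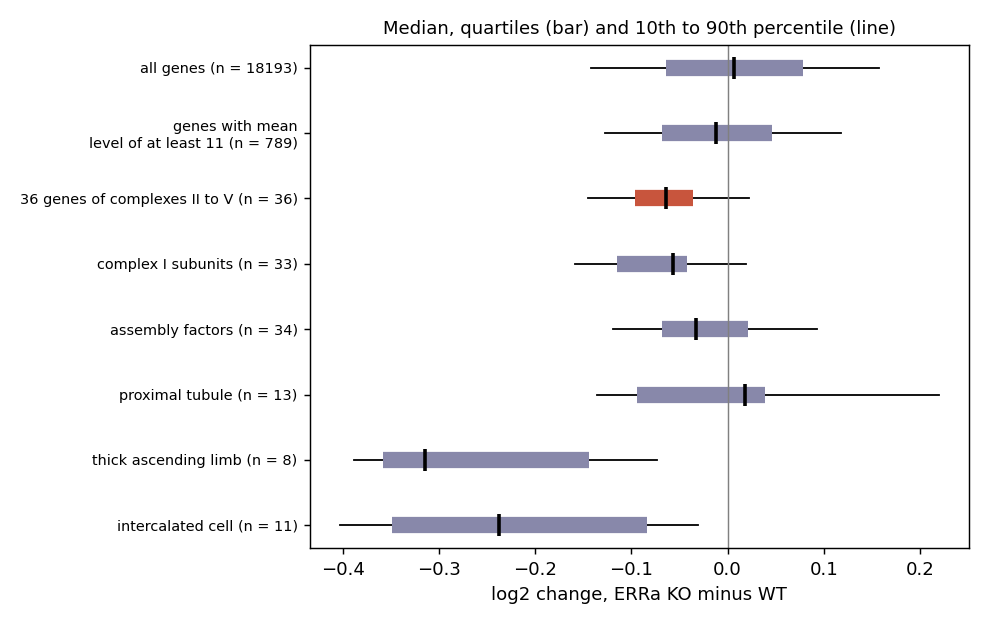
Log2 change (ERRa KO minus WT) over gene lists, as median (tick), quartiles (bar) and 10th to 90th percentile (line). The genes of complexes II to V centre on -0.06, beside -0.06 for complex I, -0.03 for assembly factors, 0.01 for all genes, -0.31 for thick ascending limb markers and -0.24 for intercalated cell markers.

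The promoters were searched for exact matches to the recognition element of ERR receptors next to the start site. Windows from 250 bases before to 50 after the start were given in the RefSeq table (GRCm38.p6) for 30 of the 37 genes, and TNAAGGTCA was searched on both strands. It was found in 2 of the 30, Atp5g3 and Sdhd, in each as the stricter form TCAAGGTCA, which it contains; 1.43% of 27025 genes in the table held the first and 0.466% the second in at least 1 window. Both are shown since they are the members that hold the element, in capitals and on the strand opposite to transcription. The Atp5g3 stretch covers the 150 bases before the start, chr2:73911327-73911476, minus strand, with the element beginning at -52 from the start.
Atp5g3: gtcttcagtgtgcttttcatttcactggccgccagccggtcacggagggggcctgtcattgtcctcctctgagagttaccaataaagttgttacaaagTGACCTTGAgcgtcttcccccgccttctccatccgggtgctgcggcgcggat
The Sdhd stretch covers 30 bases, chr9:50603800-50603829, minus strand, with the element beginning 36 bases after the start.
Sdhd: tttccgggttgtagagTGACCTTGAgccct
Their changes were -0.04 and 0.03, against a median of -0.07 over the 27 measured genes whose windows lack these letters, 23 of which read lower. The core CCGGAAG of ETS-family sites, which include those of the respiratory factor NRF-2, was added after the changes were known and was present in 10 of the 30, among them Atp5k and Atp5e, and in 9.93% of all genes. Measured genes with it had a median change of -0.06 (n = 10) and those without it also -0.06 (n = 19). Only exact matches were counted, so near runs such as CGAAGGTCA in the Atp5k window were left out. A match is a run of letters, and binding was not measured here.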

How the data were processed

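Kidney RNA was measured on 6 Affymetrix arrays, 3 per genotype. The authors deposited log2 values; the submitters' processing notes name RMA, without its settings. The authors' deposited log2 fold change and deposited p-value were read only to compare directions; that fold change follows the series table to within 7.8e-07. Of 45101 probe sets 64 controls were left out, and 34945 name 1 gene in the platform annotation. For each of 18193 genes the probe set of highest mean over all arrays was used.

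Changes were tested two-sided by moderated linear models (limma 3.58.1, R 4.3.3) with genotype alone in the model, with Benjamini-Hochberg adjustment over the 18193 genes; the threshold was an adjusted p under 0.05. No filter on low values was used. The number of arrays limits precision. Arrays shared at most 131 identical values and counted as separate samples. The fit was tested on simulated data, with changes given to genes drawn from all 18193. It called 4% of genes with a change of 0.25, 57% at 0.5 and 98% at 1.

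The members, gene lists and tests were chosen with earlier results of these data known. Values in every array are given for members past the threshold, the 8 with the smallest p, the lowest and highest of each complex (cytochrome c with complex III), the c-subunit genes and Esrra; 2 genes with the smallest p and any called are named from each pathway list. Atp5a1 values and those of other members named were added after their values were seen, as were the further paired oxidase isoforms. Many subunit genes have near-identical pseudogenes, so probe sets may read more than 1 transcript. Alternatives were leaving out each array, the replicate block, averaged probe sets, a level filter, other normalizations, array weights and a variance trend.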

Additional observations from a re-analysis of the deposited data

How the results depend on the processing

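The count of genes of complexes II to V reading lower (29, or 27 to 30 under the alternatives) stayed within 1.5 times under every alternative run, and the median change stayed negative in each. The median was -0.0427 after quantile normalizing again and ranged from -0.0695 to -0.04997 when 1 array was left out. The number past the threshold was 0 except with the variance trend (2) and among bright genes (5). The number lower at an unadjusted p under 0.05, 5 here, was 1 to 5 when 1 array was left out (1 without WT replicate 1, 2 without WT replicate 3 or ERRa KO replicate 1, 3 without WT replicate 2 or ERRa KO replicate 2), 2 with the replicate block, 3 with averaged probe sets, 13 among bright genes, 13 by the equal-variance test and 14 with the variance trend. Over all genes, 90 were called here, 10 to 39 when 1 array was left out, 18 with the replicate block, 220 above the median level, 379 with the variance trend and 0 by the equal-variance test, which put 2040 at an unadjusted p under 0.05. Same-numbered arrays did not deviate together over all genes (correlations -0.0394, -0.00314 and -0.0779). The labels do not say whether the numbers pair samples, and these correlations cannot exclude a pairing that touches few genes. Signs of single genes turned for Sdhd (-0.00163 with averaged probe sets, -0.0108 to 0.0603 when 1 array was left out), Uqcrq (0.0858 with averaged probe sets, 3 of them dim), Atp5j2 (0.0134 averaged) and Atp5o (0.00382 after quantile normalizing again), and, as single arrays were left out, for Uqcrc1 (-0.00345 to 0.0558), Cyc1 (-0.00135 to 0.0162) and Atp5b (-0.00413 to 0.0278); the cause was not tested. The medians of paired oxidase isoforms (-0.0241 to 0.0695) and of the list of carriers, porins and creatine kinases (-0.00446 to 0.0489) changed sign as arrays were left out.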
